A study of Sus scrofa with 6 samples.

Results

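Epithelial cells hold to each other through tight junctions, adherens junctions and desmosomes, and keep an apical surface apart from a basolateral one. Claudins are the membrane proteins that form the tight junction seal and set which ions pass between cells. EPCAM is a surface adhesion molecule of most simple epithelia, PERP a tetraspan protein needed for desmosome assembly, MAL2 a membrane protein of traffic to the apical surface, and PDPN (podoplanin) a mucin-like surface protein of podocytes, lymphatic endothelium and other cells. The genes described here are these 4 and the claudins CLDN4 and CLDN12. They are 6 of the 6765 genes with a symbol of their own on the array. They were chosen by their measured log2 difference between the lines, and CLDN4 and CLDN12 because theirs have opposite signs. The values of the 6 genes between the lines are therefore a description, with no test. All probe sets that carry the symbol alone were used, 7 of 23999, with 1 probe set for each of 5 genes and 2 for MAL2.

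The arrays compared untreated OBGF400 cells, a line of porcine olfactory bulb neuroblasts, with untreated PK15 cells, a pig kidney line labelled as epithelial and not neuronal, used by the study to exclude a somatic background. RNA from 9 cultures of each line was pooled into 3 samples, and each sample was hybridized to 1 Affymetrix porcine array. Each group is thus 1 cell line, and the spread between arrays is that between pools of cultures, not between animals. Both media held 10% bovine calf serum, but the base medium differed, and the PK15 medium also held amphotericin B, so line and medium cannot be told apart. In such pools, fewer cells of a type and less RNA per cell cannot be told apart either.

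Values are log2 signals as deposited, and all differences are OBGF400 minus PK15. The 6 arrays shared a lower limit of 2.13, called the floor, at which 25.8% to 27.3% of an array's probe sets lay. A gene within 0.1 of it on all 3 arrays of a line is called at the floor, so the size of a difference from such a level is set in part by that limit. For that reason differences are also given after 32 was added to the linear signals. A gene was called where limma gave an adjusted p under 0.05 over all genes, which 60.8% of them passed, 23.9% higher and 36.8% lower in OBGF400. Arrays correlated at 0.997 to 0.998 within OBGF400 and at 0.996 within PK15, against 0.86 to 0.865 between the lines, across probe sets, which are not independent. No genome coordinates are given, since the sources used here name no build for the array's probes.

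The labels were set against cell markers. Of 5 epithelial markers 4 were measured (KRT8, KRT18, KRT19 and CDH1), and all 4 were lower in OBGF400. Their summed level, as log2 of the summed linear signals, was 4.43 to 4.54 in OBGF400 and 15.77 to 15.9 in PK15. Of 9 neuroblast and neuron markers 4 were measured, with a summed level of 12.38 to 12.54 in OBGF400 and 4.16 to 4.48 in PK15. UCHL1, a ubiquitin hydrolase abundant in neurons, and NCAM1, a neural adhesion molecule, were higher in OBGF400, by 10.21 (adjusted p = 6.47e-08) and 6.20 (adjusted p = 0.000102). The other 2, STMN2 and GAP43, genes of growing axons, were at the floor in both lines. Of 8 mesenchymal markers 6 were measured and 4 were higher in OBGF400, with summed levels of 16.36 to 16.39 in OBGF400 and 15.64 to 15.7 in PK15. The mesenchymal cadherin CDH11 had 13.75 ± 0.14 in OBGF400, against 2.15 ± 0.03 in PK15 (SD, n = 3 each). On the probe sets with the highest mean, COL1A2 and PDGFRB were higher in OBGF400 by 9.91 and 9.88. Their second probe sets differed by 3.62 and by 0.07. VIM was higher by 0.11 (15.14 against 15.04 in PK15). This rise is smaller in size than the shift of about -0.86 that scaling on poly-A spike-in controls gave all genes, described below. FN1 (14.25 against 14.15 in PK15) and COL3A1 (2.65 against 2.58 in PK15) were not called, though another FN1 probe set differed by 4.56. The part of the mesenchymal genes in the results on epithelial genes was not tested.

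EPCAM, PERP, MAL2, PDPN and CLDN4 lay near the floor on every OBGF400 array and high above it on every PK15 array, while CLDN12 showed the opposite order with a smaller distance. In OBGF400, PERP, MAL2 and PDPN were at the floor, and EPCAM and CLDN4 lay slightly above it. On the probe set that stands for each of the 6 genes the arrays of the lines were fully separated, as for 66.9% of all genes. The second MAL2 probe set also separated them. The probe sets that stand for 5 of the 6 genes were at least 8-fold lower in OBGF400, as were 5.71% of all genes, and that of CLDN12 was at least 8-fold higher, as were 4.61%. The choice of the genes used this contrast, so nothing is read from these shares.

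EPCAM gave signals of 2.29, 2.29 and 2.30 on the OBGF400 arrays, against 13.96, 13.65 and 13.72 on the PK15 arrays. All 3 OBGF400 arrays were low and nearly equal, 0.16 above the floor on average, and the nearest arrays of the lines lay 11.35 apart. The mean was 2.29 ± 0.01 in OBGF400 and 13.78 ± 0.16 in PK15 (SD, n = 3 each), which is -11.48 as a difference, or -8.58 with 32 added. These correspond to a signal 2870-fold lower in OBGF400 as deposited and 381-fold lower with 32 added. The distance between the 2 figures shows how far the size of such a difference rests on the low end of the scale.

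PERP was at 2.21, 2.13 and 2.13 in OBGF400, against 14.35, 14.31 and 14.35 in PK15. Its PK15 arrays had a range of 0.05, and every OBGF400 array was at the floor. The difference was -12.18, or -9.15 with 32 added.

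MAL2 has a pair of probe sets, and their values were far apart in size. The one with the higher mean was at 2.13 on each OBGF400 array, against 12.78, 12.33 and 12.69 on the PK15 arrays, a difference of -10.47, or -7.42 with 32 added. The other was at 2.14, 2.13 and 2.14 in OBGF400, against 3.74, 3.58 and 2.64 in PK15. On this probe set all PK15 arrays were again above all OBGF400 arrays, but the nearest arrays lay 0.50 apart, less than the PK15 range of 1.1. The difference was -1.18, or -0.22 with 32 added. The size of the MAL2 difference thus rests on 1 of its 2 probe sets, while the sign is the same on both.

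PDPN was at 2.17, 2.17 and 2.15 in OBGF400, against 11.79, 11.82 and 11.94 in PK15. All OBGF400 arrays were at the floor, and the difference was -9.69, or -6.68 with 32 added. PDPN also marks lymphatic endothelium, podocytes and mesothelium, and their markers were set beside it. Of 5 lymphatic and endothelial markers 3 were measured, with a summed level of 3.77 to 3.82 in OBGF400 and 4.49 to 5.62 in PK15. The endothelial cadherin CDH5 was lower in OBGF400 (2.20 ± 0.11 against 4.43 ± 0.77 in PK15, SD, n = 3, adjusted p = 0.00887), and LYVE1 and PECAM1 were not called. The CDH5 difference was -2.24, or -0.58 with 32 added, and its other probe set was at the floor in both lines. Of 5 podocyte and mesothelial markers, the transcription factor WT1 was measured and was lower in OBGF400 (5.01 ± 0.44 against 7.0 ± 0.31 in PK15, SD, n = 3, adjusted p = 0.00371). The part of such cells in the PDPN signal of PK15 was not tested.

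CLDN4, a claudin that restricts the passage of ions between epithelial cells, was at 2.29, 2.36 and 3.16 in OBGF400, against 12.48, 12.17 and 12.34 in PK15. Replicate 3 of OBGF400 lay above the other OBGF400 arrays, and the nearest arrays of the lines were still 9.02 apart. The mean was 2.60 ± 0.48 in OBGF400 and 12.33 ± 0.15 in PK15 (SD, n = 3 each), which is -9.73 as a difference, or -7.08 with 32 added. The OBGF400 mean lay 0.47 above the floor.

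CLDN12, a claudin known for lacking the terminal motif by which most claudins bind scaffold proteins, was at 5.95, 6.44 and 6.46 in OBGF400, against 2.91, 2.87 and 2.81 in PK15. All OBGF400 arrays were above all PK15 arrays, by at least 3.04. The mean was 6.28 ± 0.29 in OBGF400 and 2.86 ± 0.05 in PK15 (SD, n = 3 each), which is 3.42 as a difference, and 1.49 with 32 added. In linear terms the signal was 77.9 in OBGF400 and 7.27 in PK15, so the 10.7-fold difference as deposited became 2.81-fold with 32 added. Probe sets at a mean level of 5 to 7 had a median SD within a line of 0.20, which puts the OBGF400 spread of CLDN12 above the usual one for its level.

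**Figure D1:**
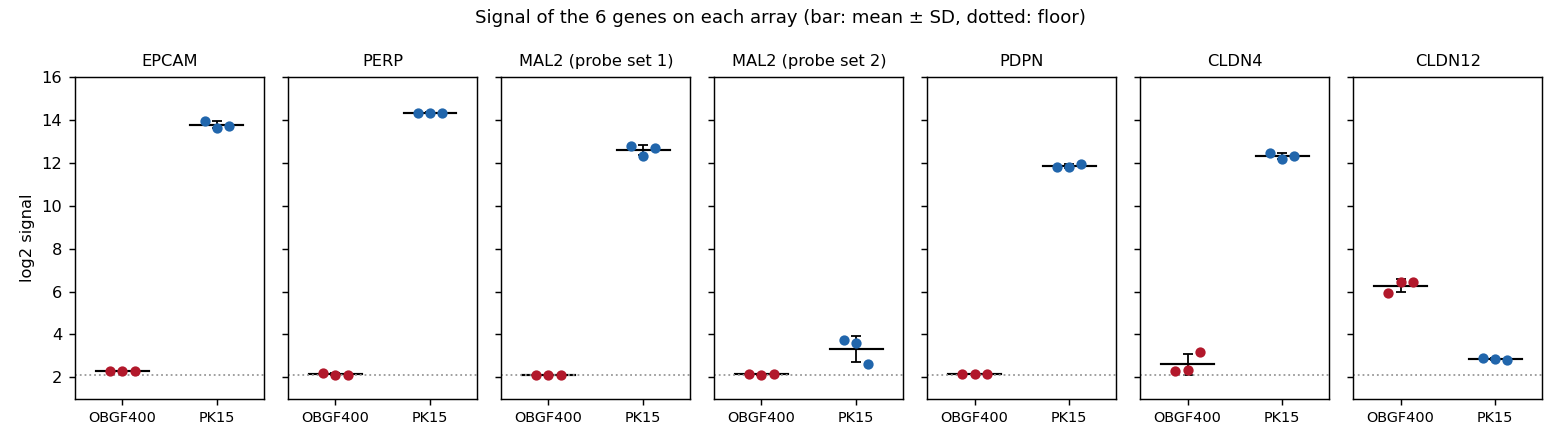
Log2 signal (vertical axis) of each probe set of the 6 genes on the 3 OBGF400 arrays (red) and the 3 PK15 arrays (blue), with the mean ± SD as bars and the floor of 2.13 as a dotted line. The OBGF400 points of EPCAM, PERP, MAL2, PDPN and CLDN4 lie at or near the floor, the second MAL2 probe set stays below 4 in both lines, and CLDN12 is higher in OBGF400.

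The signs of the differences did not depend on how the arrays were scaled. Scaling on the hybridization controls moved the median difference of all genes to 0.82, and scaling on the poly-A spike-in controls dap and thr moved it to -0.86. The CLDN12 difference was 4.24 on the hybridization controls and 2.57 on the poly-A controls, and it was 3.33 to 3.59 when 1 array was left out at a time. The CLDN4 difference was -8.91 and -10.58 under these scalings, and -10.01 to -9.57 with 1 array left out. For the second MAL2 probe set the hybridization control scaling left a difference of -0.36 and the poly-A control scaling -2.04.

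**Figure D2:**
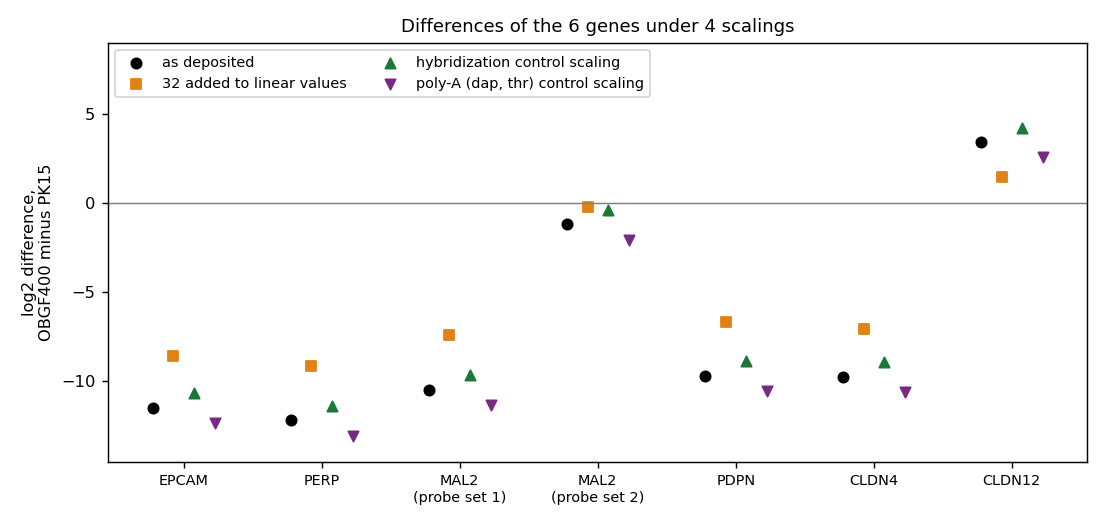
Log2 difference, OBGF400 minus PK15 (vertical axis), of each probe set of the 6 genes as deposited, with 32 added to the linear signals, and after scaling on hybridization or poly-A controls. Every point of CLDN12 lies above 0, from 1.49 to 4.24, and every point of the other genes below 0, with the second MAL2 probe set nearest to it at -0.22.

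Among the other claudins, CLDN3 fell in OBGF400, and the rest showed no called difference. Of 9 claudin genes measured, 7 are not among the genes described above. CLDN3, which like CLDN4 is typical of simple epithelia, was at 2.13 on each OBGF400 array, against 6.95, 7.15 and 5.97 on the PK15 arrays, a difference of -4.56 (-1.91 with 32 added, adjusted p = 0.000358). Its other probe set gave 2.21 on all 6 arrays. CLDN7, a claudin that binds EPCAM directly, was at 2.54 on each OBGF400 array, against 3.74, 2.79 and 2.59 on the PK15 arrays (difference -0.50, adjusted p = 0.278). All PK15 arrays of CLDN7 were above the OBGF400 arrays, but the lowest of them by little.

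CLDN6, a claudin of embryonic epithelia, had 5.51 ± 0.13 in OBGF400, against 5.30 ± 0.45 in PK15 (SD, n = 3 each, difference 0.20, adjusted p = 0.573), and these arrays overlapped. Without replicate 3 of PK15 its difference was -0.04, without a call. CLDN14 differed by -0.48 (adjusted p = 0.14), and without replicate 2 of PK15 by -0.72 with a call. An OBGF400 value of 2.52 on each array, shared by that PK15 replicate, leaves no spread to judge it by. CLDN5, CLDN10 and CLDN11, which are best known from endothelium, kidney tubule and myelin, were at the floor in both lines.

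**Figure D3:**
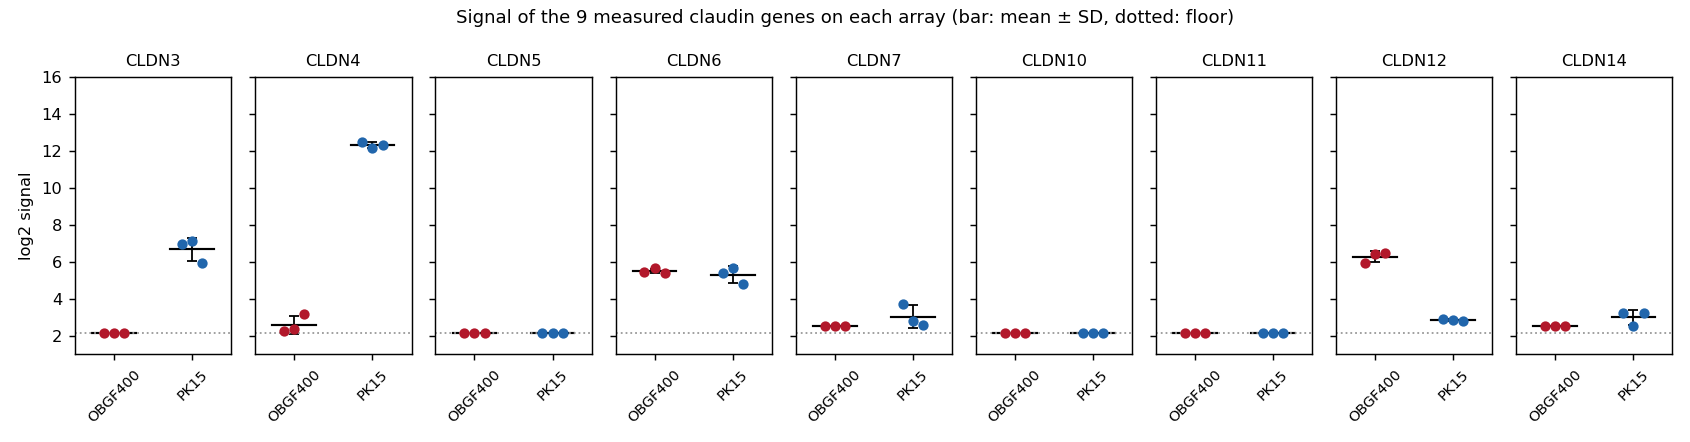
Log2 signal (vertical axis) of the 9 measured claudin genes on the 3 OBGF400 arrays (red) and the 3 PK15 arrays (blue), each by its probe set with the higher PK15 mean, with mean ± SD as bars and the floor of 2.13 as a dotted line. CLDN3 and CLDN4 are low in OBGF400, CLDN12 is higher in OBGF400, CLDN6 overlaps between the lines, and CLDN5, CLDN10 and CLDN11 lie at the floor in both.

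The wider tight junction list held more falls than rises. Of 49 listed symbols 18 were measured, of which 6 were lower in OBGF400, 2 higher and 10 not called, and 4 of these 10 lay on the floor in both lines. The share called lower, 33.3%, was close to the 36.8% of all genes, and the median difference was -0.11, against -0.002 for all genes. The strand protein occludin, OCLN, fell to 2.99 ± 0.12 in OBGF400, against 11.74 ± 0.18 in PK15 (SD, n = 3 each), a difference of -8.76 (-6.44 with 32 added, adjusted p = 2.4e-06). Of its other probe sets, 1 differed by -7.81, and the last, with a PK15 mean of 3.81 ± 1.14 (SD, n = 3), by -1.67 without a call (adjusted p = 0.111).

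LSR, a protein of the contacts where 3 cells meet, fell by 6.90 on the log2 scale (-4.33 with 32 added, adjusted p = 8.46e-07). CXADR, an immunoglobulin-like adhesion protein of tight junctions, fell by 5.37 (-3.31 with 32 added, adjusted p = 1.09e-05). The exception of size was JAM3, a junctional adhesion molecule also found outside epithelia, which was at 9.67, 9.64 and 9.51 in OBGF400 and at 2.19, 2.22 and 2.48 in PK15, a rise of 7.31 (4.46 with 32 added, adjusted p = 2.21e-06). The scaffold gene MAGI3 rose by 0.67 (adjusted p = 0.0105), which became -0.19 under poly-A control scaling. TJP1, the cytoplasmic plaque protein ZO-1, had 5.55 ± 0.19 in OBGF400, against 5.03 ± 0.31 in PK15 (SD, n = 3 each, adjusted p = 0.0842), and was called without replicate 3 of PK15 (0.66). It was also called higher with the dimmest genes left out (0.51, adjusted p = 0.0325) and under hybridization control scaling (1.34, adjusted p = 1.15e-05). Under poly-A control scaling it differed by -0.34 without a call. F11R and CLDN1 have no named probe set here. Under hybridization control scaling the list had 11 genes higher and 5 lower, and under poly-A control scaling 1 higher and 15 lower, where genes on the floor in both lines take the sign of the shift.

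Genes of adherens junctions and of desmosomes, the latter being the structures that PERP serves, included large falls in OBGF400. Of 11 measured of 30 listed symbols, 5 were lower in OBGF400, 1 higher and 5 not called. Of the uncalled genes, 3 lay on the floor in both lines, and NECTIN2 gave 4.16 on all 6 arrays, with no spread. The median difference was -0.28 and the share called lower 45.5%, against 36.8% of all genes. E-cadherin, CDH1, was at 2.72, 2.89 and 2.89 in OBGF400, against 12.30, 12.48 and 12.56 in PK15 (difference -9.62, -7.17 with 32 added, adjusted p = 7.32e-07). Desmoplakin, DSP, which ties desmosomes to keratin, lay on the floor in OBGF400, against 9.51 ± 0.24 in PK15 (SD, n = 3), and differed by -7.38 (-4.39 with 32 added, adjusted p = 4.82e-06), while its second probe set was at the floor in both lines. The plakin PPL, periplakin, differed by -7.03 (-4.06 with 32 added, adjusted p = 4.88e-07).

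Vinculin, VCL, which links actin to adhesions of many cell types, was higher in OBGF400 (14.30 ± 0.03 against 10.81 ± 0.08 in PK15, SD, n = 3 each, adjusted p = 2.43e-06), by 3.49. Its other probe sets differed by 8.42 (adjusted p = 1.46e-07 over the probe sets) and by -0.24 without a call (adjusted p = 0.752). The catenins were less clear. Plakoglobin, JUP, fell by 1.06 (adjusted p = 0.0277) and beta-catenin, CTNNB1, by 0.42 (adjusted p = 0.0415), and CTNNB1 was 0.40 higher under hybridization control scaling. Of the 5 CTNNB1 probe sets, that with the largest fall differed by -1.27 and that with the largest rise by 1.23. The calls rested on few arrays. Without replicate 2 or 3 of OBGF400, or replicate 1 or 3 of PK15, both catenins lost their calls and the list had 3 genes lower. Without replicate 1 of OBGF400 the CTNNB1 call was lost, and without replicate 2 of PK15 the JUP call, with 4 genes lower in each case. The differences with 1 array left out were -0.54 to -0.33 for CTNNB1 and -1.21 to -0.84 for JUP, and JUP was at -0.23 without a call under hybridization control scaling.

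Genes whose products cut, bind or anchor EPCAM and PDPN differed in both directions. Of 16 measured of 22 listed, 8 were lower in OBGF400, 6 higher and 2 not called, a share called of 87.5%, against 60.8% of all genes, and the median was -0.50. On the EPCAM side, the tetraspanin CD9, a surface partner of EPCAM, was at 3.39, 2.81 and 3.39 in OBGF400, against 12.90, 12.72 and 12.38 in PK15 (difference -9.47, -7.30 with 32 added, adjusted p = 1.21e-05). CD81, another listed tetraspanin, was higher in OBGF400 (11.88 ± 0.11 against 10.07 ± 0.14 in PK15, SD, n = 3 each, difference 1.80, adjusted p = 0.000131). CD82 was not called. The epithelial protease matriptase, ST14, which cuts EPCAM, fell by 6.11 (-3.21 with 32 added, adjusted p = 6.09e-07). Its inhibitors SPINT2 and SPINT1 fell with it, with differences for SPINT2 of -6.57 (-4.42 with 32 added, adjusted p = 6.75e-05) and for SPINT1 of -5.66 (-3.45 with 32 added, adjusted p = 3.2e-05). The epithelial mucin MUC1 fell by 5.57 (-3.66 with 32 added, adjusted p = 1.33e-05). The second probe set of SPINT2 differed by -0.04 without a call, and that of MUC1 was at 2.20 on all 6 arrays.

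Like CD81, the sheddase and secretase genes, which release the outer and inner parts of EPCAM and act on many other surface proteins, were higher in OBGF400. ADAM10 was at 6.94, 6.92 and 7.01 in OBGF400, against 4.99, 4.09 and 4.18 in PK15, a rise of 2.54 (1.53 with 32 added, adjusted p = 0.00117). PSEN2, a presenilin, rose by 3.04 (1.87 with 32 added, adjusted p = 0.00163). ADAM17 rose by 1.84 (1.38 with 32 added, adjusted p = 5.24e-05) on the probe set used, and its 4 probe sets disagreed, with 1 at a difference of -0.95 (adjusted p = 0.00648 over the probe sets, of which 41.9% were called). FHL2, which binds the freed inner part of EPCAM, rose by 0.86 (adjusted p = 0.000177), a rise that was 0.01 under poly-A control scaling.

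On the PDPN side, the anchoring proteins between membrane and actin split. Ezrin, EZR, the member typical of epithelia, fell to 10.00 ± 0.14 in OBGF400, against 12.71 ± 0.09 in PK15 (SD, n = 3 each, difference -2.72, adjusted p = 2.89e-05). Moesin, MSN, was higher in OBGF400 (13.50 ± 0.03 against 11.88 ± 0.08 in PK15, SD, n = 3 each, difference 1.62, adjusted p = 2.14e-05), and by 4.65 on its second probe set. Radixin, RDX, differed by -0.78 (adjusted p = 0.0281), but its 2 probe sets had called differences of opposite sign, and the first was 0.04 under hybridization control scaling. Its call was lost without any 1 of the OBGF400 arrays, with differences of -0.83, -0.75 and -0.77. CD44, which binds PDPN, has no named probe set here.

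By the probe set used for each gene, genes of the MAL family and of apical traffic were lower in OBGF400 or not called. Of 13 measured of 20 listed, 11 were lower, 0 higher and 2 not called. The median difference was -1.03 (-1.02 with 32 added). With the mean of probe sets it was -0.45, and 10 genes were lower. RAB11A, counted as lower at -0.50, was 0.52 higher in OBGF400 on its second probe set (adjusted p = 0.00636 over the probe sets). The falls of RAB11A, FLOT2 (-0.74), FLOT1 (-0.46) and INF2 (-0.36) were also smaller than the shift of about 0.82 from hybridization control scaling. The share called lower was 84.6%, against 36.8% of all genes. The motor MYO5B, which moves recycling vesicles to the apical side, was on the floor in OBGF400, against 9.44, 9.63 and 9.91 in PK15 (difference -7.53, -4.53 with 32 added, adjusted p = 4.08e-06). The MAL relatives PLLP and MAL fell, with differences of -4.44 (-2.07 with 32 added, adjusted p = 1.38e-05) and -3.66 (-2.95 with 32 added, adjusted p = 5.24e-06). MAL differed from MAL2 in keeping a signal above the floor in OBGF400, at 5.56, 5.43 and 5.42.

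TPD52, which binds MAL2, fell to 7.89 ± 0.14 in OBGF400, against 11.77 ± 0.08 in PK15 (SD, n = 3 each, difference -3.88, adjusted p = 9.68e-06), and its relative TPD52L2 fell by 1.04 (adjusted p = 0.000105). The second TPD52L2 probe set differed by 0.14 without a call (adjusted p = 0.307 over the probe sets). RAB8A, a small GTPase of apical transport, fell by 2.94 (-1.18 with 32 added, adjusted p = 0.000257). The SNARE gene VAMP8 fell by 1.03 (adjusted p = 0.0028). The calls of TPD52L2 and VAMP8 were lost under hybridization control scaling, where both differed by -0.21, and where the list had 5 genes higher and 5 lower.

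Regulators known to promote or repress epithelial genes were few on the array. Of 7 measured epithelial transcription and splicing factors of 20 listed, 5 were lower in OBGF400, 0 higher and 2 not called, and the median difference was -2.69. The share called lower was 71.4%, against 36.8% of all genes, in a list of 7. ELF3, an epithelial ETS factor, was at 3.39, 3.24 and 3.17 in OBGF400, against 9.15, 8.98 and 9.31 in PK15 (difference -5.88, -3.85 with 32 added, adjusted p = 5.11e-06). ESRP1, a splicing factor of epithelial isoforms, fell by 5.09 (-2.56 with 32 added, adjusted p = 7.62e-06). FOXA1 and KLF4 fell, with differences of -3.38 (-2.26 with 32 added, adjusted p = 0.0013) and -2.69 (adjusted p = 5.64e-05).

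Of 9 listed repressors of epithelial genes 3 were measured, and 2 were higher in OBGF400, as were 23.9% of all genes. TWIST2 was at 6.46, 6.37 and 6.67 in OBGF400 and at the floor in PK15 (difference 4.37, 1.75 with 32 added, adjusted p = 6.22e-06). SNAI1, a repressor of CDH1, had 6.60 ± 0.20 in OBGF400, against 4.69 ± 0.01 in PK15 (SD, n = 3 each, difference 1.91, 1.16 with 32 added, adjusted p = 0.000158), while its second probe set was not called (0.42, adjusted p = 0.198 over the probe sets). GRHL2, SNAI2, ZEB1, ZEB2 and TWIST1 have no named probe set here.

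**Figure D4:**
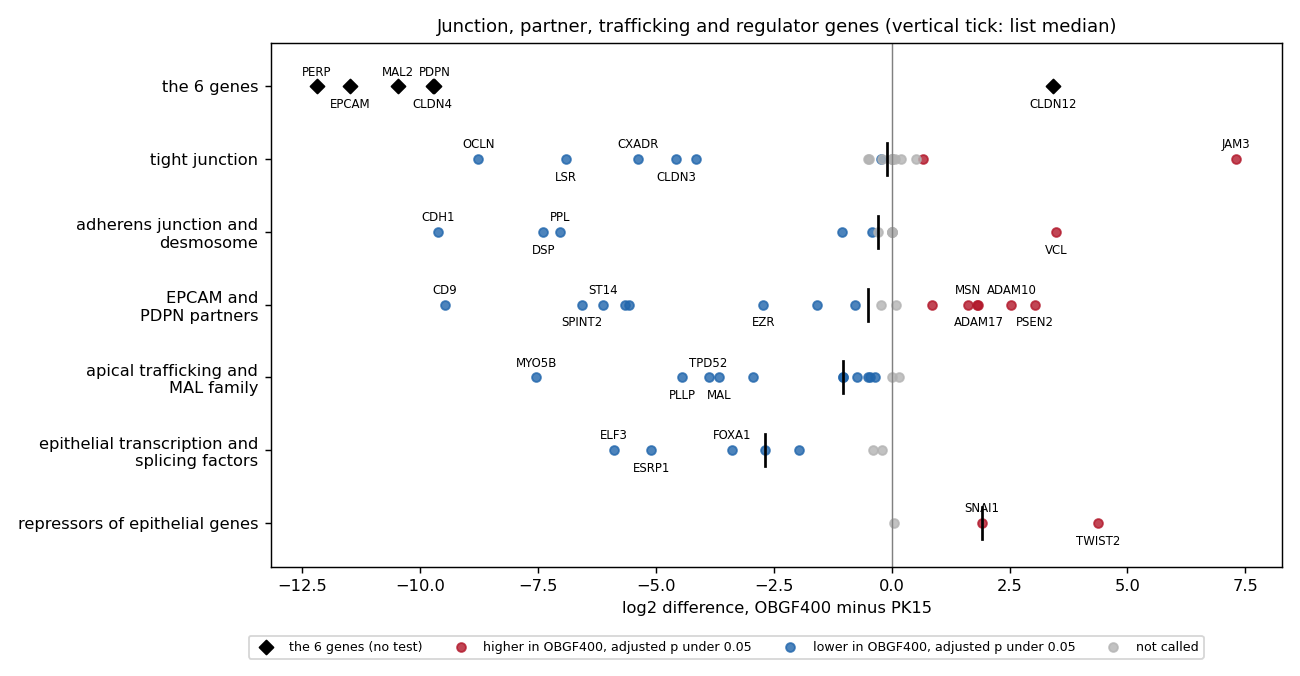
Log2 difference, OBGF400 minus PK15 (horizontal axis), of the 6 genes (black diamonds, no test) and of every measured gene of the 6 lists, red where called higher in OBGF400, blue where called lower and grey where not called, with the list median as a vertical tick. Apical trafficking genes lie at or below 0 apart from 1 uncalled gene, the partner genes spread to both sides, and most tight junction genes that were not called lie near 0.

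Outside the 6 genes themselves, the genes whose pattern over the 6 arrays was nearest to each of them were found by Euclidean distance between profiles centred on their own means. For EPCAM they were the keratins KRT19 (distance 0.31 on the log2 scale) and KRT18 (0.42) and the protease inhibitor SLPI (0.73). For PERP they were the retinol carrier RBP4 (0.17), the keratin KRT8 (0.30) and SLPI (0.53). CDH1 was the nearest of these other genes to PDPN (0.20), and was among the 3 nearest of them to CLDN4 (0.73) and MAL2 (1.14). PKIB, an inhibitor of protein kinase A, was also among the 3 nearest other genes for PDPN, CLDN4 and MAL2. Among the 6 genes, PDPN lay 1.01 from MAL2 and 0.74 from CLDN4, and EPCAM lay 0.88 from PERP. The remaining ones were WFDC2 for MAL2 (0.73), TSTD1 for PDPN (0.27) and ROPN1L for CLDN4 (0.73).

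For CLDN12 the nearest were the collagen-processing enhancer PCOLCE2 (0.30), the membrane protease BACE2 (0.35) and the clock factor ARNTL (0.37), higher in OBGF400 by 3.43, 3.48 and 3.47. With 32 added these differences were 3.24, 3.17 and 2.99, against 1.49 for CLDN12, so the likeness held on the deposited scale. With 2 lines the distance mainly records the size of the difference between them, over 6 arrays.

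In the gene order of the pig assembly Sscrofa11.1, CLDN3 is the protein-coding gene next to CLDN4. Of the 24 protein-coding genes that flank the 6 genes, 2 on each side, 4 have a named probe set. All 4 were lower in OBGF400, where 36.8% of all genes were. Beside CLDN3 these were CALM2 near EPCAM (-1.0, adjusted p = 7.16e-05), ENPP2 near MAL2 (-2.80, adjusted p = 0.048) and GTPBP10 next to CLDN12 (-0.51, adjusted p = 0.00879). GTPBP10 thus had the opposite sign to CLDN12, but was 0.31 higher under hybridization control scaling, and -0.13 as the mean of its 3 probe sets, both without a call. The ENPP2 call was lost without any 1 array except replicate 3 of PK15, with differences of -2.80, -2.57 and -2.12, and with 32 added (-0.92). CALM2 was at -0.17 without a call under hybridization control scaling.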

How the data were processed

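The deposited table holds 1 log2 signal per probe set and array. Per the submitters' processing notes the package affy was used, with no version. How background, summary and normalization were handled is not given in the sources used here. Per the labels' protocols, 8 µg of pooled RNA was labelled for each array. No count or depth applies, and 3 arrays per line limit the precision.

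Of 24123 probe sets, 124 controls were left out. The platform annotation gives 1 symbol to 10069 of the rest, several to 198 and none to 13732, and 9961 were matched by Entrez number to RefSeq (Sscrofa11.1), with 0 renamed. Where a gene had several probe sets, that with the highest overall mean stood for it. The lines were compared with limma 3.58.1 in R 4.3.3 (lmFit, eBayes, two-sided, Benjamini-Hochberg over all genes). The fit was tried on simulated normal values with changes placed only in brighter probe sets, which does not cover genes at the floor. An exact permutation test of 1 gene cannot go below p = 0.1 here.

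The genes and the 6 lists were chosen with earlier results of these data known. Named genes were up to 3 called rises and 3 called falls per list, a fixed set of junction genes and regulators, and the 3 nearest profiles. The other claudins and the flanking genes were named after their values were seen. So were SPINT1, MUC1, CD81, CD82, FHL2, KLF4, RAB8A, RAB11A, FLOT1, FLOT2, INF2, VAMP8, TPD52L2, NECTIN2, CDH5, WT1 and other cell markers. No list was tested as a set. Alternatives were quantile normalization, scaling on 27 hybridization or 18 poly-A control probe sets, leaving out the dimmest 25% of genes, a trended and robust variance, 32 added, the mean of probe sets, a threshold of 0.01, a replicate block, and leaving out each array.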

Additional observations from a re-analysis of the deposited data

How the results depend on the processing

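The alternatives that changed most were the control scalings, which shift every gene of an array by a constant. Of all calls, 39.4% were higher in OBGF400 as deposited, 78.1% with hybridization control scaling (4487 genes higher and 1259 lower) and 12.8% with poly-A control scaling (763 higher and 5219 lower). Tight junction genes then numbered 11 higher, or 1 higher and 15 lower. Adherens junction and desmosome genes numbered 7 higher and 3 lower, or 10 lower. Apical trafficking genes numbered 5 higher and 5 lower with hybridization control scaling, which also gave 2 epithelial factors higher, and poly-A control scaling gave 1 repressor lower. These factors and this repressor had means of at most 2.55 in either line, near the floor, and took the sign of the shift. A threshold of 0.01 left 1 tight junction gene higher and 3 adherens junction and desmosome genes lower. Leaving out 1 array gave 3 to 4 such genes lower. Not every named gene was followed through the alternatives. Among those followed, the sign turned for MAGI3 (-0.19), TJP1 (-0.34) and CLDN6 (-0.65) under poly-A control scaling. Under hybridization control scaling it turned for CTNNB1 (0.40), RDX (0.04), CLDN7 (0.32), CLDN14 (0.34) and GTPBP10 (0.31). CLDN6 also turned with 1 array left out, where it differed by -0.04 to 0.40. Of the named genes not followed, RAB11A (-0.50) and CD82 (-0.22) differed by less than the hybridization control shift of about 0.82. VIM and FN1 (0.11 each) and COL3A1 (0.07) differed by less than the size of the poly-A control shift, about -0.86. The signs of such genes turn with these shifts. No probe set of the 6 genes changed sign under any alternative run. The replicate numbers are shared by the lines but did not pair the arrays, since same-numbered arrays had deviations correlated at 0.05, 0.01 and 0.03. With the replicate block 1478 genes were higher and 2304 lower, and JUP (-1.06) and ENPP2 (-2.80) were not called.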
